A study of Mus musculus with 4 samples.

Results

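Solute carriers are membrane proteins that move ions, sugars, amino acids, organic acids, metals and metabolites across the plasma membrane and the membranes of organelles. In the colon, apical carriers of the surface cells take up sodium, short-chain fatty acids, vitamins and metals, basolateral carriers load chloride or pass nutrients on, and the Slc25 family links the cytosol with the mitochondrial matrix. Leukocytes carry their own set for glucose, lactate and lysosomal peptides. The genes described here are those whose annotated symbol starts with Slc, a family number, the letter a and a member number, leaving out Slc26a3. They were 306 of 16637 named genes on the arrays, and 179 of them were at or above the named-probe median of 1 array or more and are called measured, against 10056 measured genes in all. The rule takes letter a families alone, so that, of the nucleotide sugar carriers, Slc35a genes are in and Slc35b to Slc35f genes are not.

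Colon RNA was taken from female mice, labelled BALB/c for mock and BALC/c for the other groups, in 4 groups of 6 mice. They received 250 mg/kg trinitrobenzene sulfonic acid (TNBS, a hapten that provokes colitis in rodents) mixed with ginger extract, the same dose of TNBS mixed with zingerone (a phenolic ketone of ginger), TNBS alone, or, as mock, the vehicle alone. All groups, mock included, received the shared vehicle of 0.1 ml with 50% ethanol, and tissue was taken on day 7. Each group had 1 array, a 1-colour array hybridised with Cy3-labelled amplified RNA, so the differences below carry neither an error nor a p-value and lack a replicate check, and precision is limited by having 4 arrays. Whether 1 mouse or a pool was hybridised is not stated in the labels, and ginger extract and zingerone are given there in various amounts.

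Values are Cy3 intensities, and "higher" and "lower" stand for a difference of 2-fold or more between the arrays named. Since the arrays were brought to a common distribution, a level is a rank within its array, and the intensities of different genes cannot be set against each other. Of the 179 measured genes, 124 were at or above that median (270.5 on the mock array) on all 4 arrays and 24 on 1 array alone. Such a gene passed through the array where it was bright and had to differ. At the edge of this limit, Slc26a2 and Slc25a38 came in with highest values of 1.005 times an array's median each, and Slc16a8 (0.990 times) and Slc17a2 (0.983 times) stayed out. Of the measured genes 147 had 1 probe and 32 had several, whose mean on the log2 scale is given unless single probes are named.

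Whole colon tissue was measured, so that fewer cells of a type and less RNA per cell cannot be told apart. All 12 epithelial markers, such as Epcam, Cdx2 and Krt20, were measured. Their summed intensity was 205730 on the ginger array, 210110 on the zingerone array, 169720 on the TNBS array and 182330 on the mock array. Between TNBS and mock 1 of them was higher (Krt18) and 1 lower (Cdx2), with a median log2 difference of -0.52. The measured neutrophil markers stood far apart: all 6 measured of 9 listed were higher on TNBS than on mock, and their sum was 103760 on ginger, 82457 on zingerone, 177660 on TNBS and 5022 on mock. Those below the limit were within 2-fold on TNBS over mock (Csf3r 1.28-fold, Ngp 1.37-fold and Mpo 1.06-fold). Mmp8 and Cxcr2 passed the limit through arrays of TNBS-treated mice alone. The sum of the 8 measured of 9 macrophage markers was 3296, 3418, 3681 and 3291 in the same order, with 1 higher on TNBS than on mock (Cd68). Of 6 adipocyte markers 5 were measured, and Lep passed the limit on the TNBS and zingerone arrays alone. Plin1, below the limit, was 1.02-fold above mock on TNBS. The sum of the 5 measured adipocyte markers was 15780, 28217, 63930 and 9544 in the same order. Such sums are carried by their brightest genes. Fabp4 made up 45906 of the adipocyte sum on TNBS, and S100a8 and S100a9 made up 36266 and 51921.5 of the neutrophil sum on ginger. Of 4 measured B and plasma cell markers 3 were lower on TNBS than on mock, 1 of 3 endothelial markers and the 1 measured red blood cell marker were higher, and 1 of 2 exocrine pancreas markers was lower. Of the measured T cell (4), fibroblast (5), smooth muscle (6), enteric neuron and glia (2) and small intestine (3) markers, 0 were 2-fold apart between TNBS and mock. No marker had an intensity of 0. The part of these cell types in the results below was not tested.

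TNBS over mock shows how the transporter genes differed in colon after the hapten. On the TNBS array 7 of the 179 were higher (3.91%), beside 5.08% of all measured genes, and 16 were lower (8.94%), beside 4.52%. Counting only the 124 members that were at or above the median on all 4 arrays, a choice made after seeing the data, 6 were higher and 8 lower (6.45%, beside 4.67% of the 7517 genes that were so on all 4 arrays). The genes that were higher handle glucose, lactate, amino acid exchange, lysosomal peptides, copper and mitochondrial ADP and ATP. Those that were lower include carriers of apical and basolateral uptake in epithelia, 2 nucleotide sugar carriers and 2 mitochondrial carriers. The median log2 difference was -0.09 for these genes and -0.04 for all measured genes, with 70 of 179 above 0 and 109 below.

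**Figure D1:**
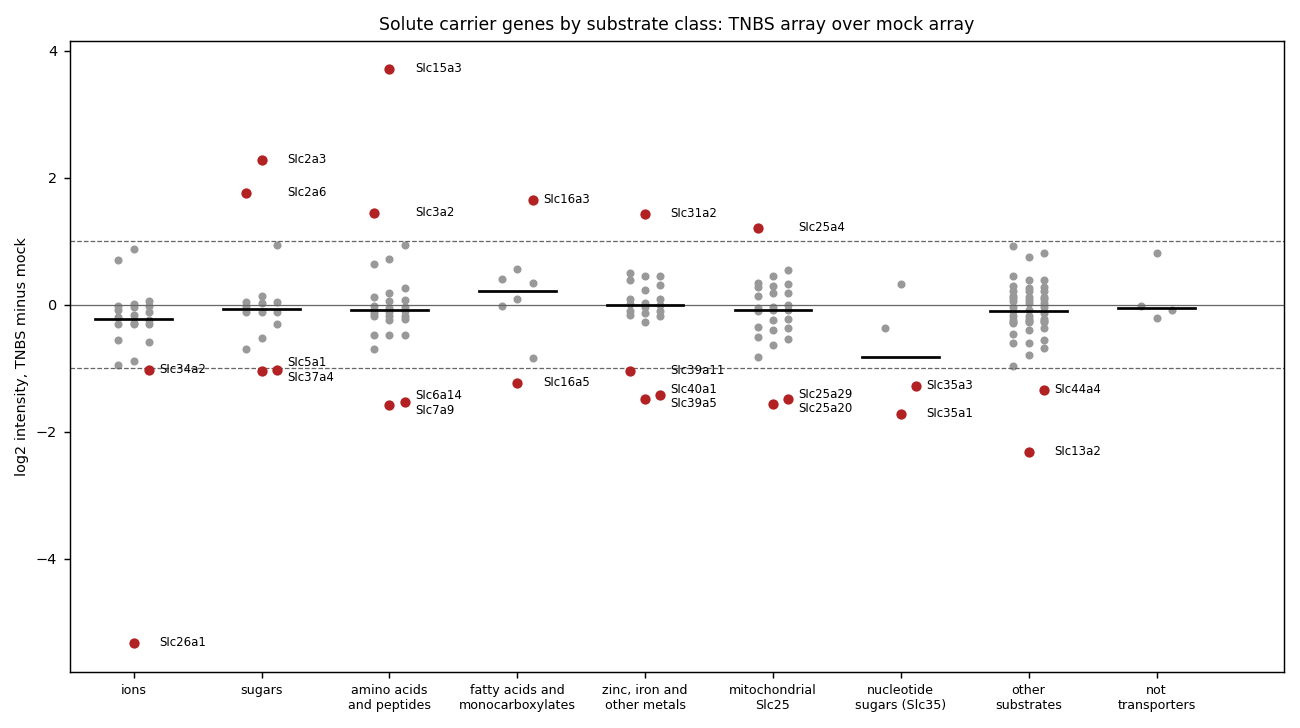
Log2 intensity difference of TNBS minus mock (y axis) for each of the 179 measured solute carrier genes, by substrate class (x axis). Red points are at least 2-fold apart and named, grey points are not, bars are class medians, and dashed lines mark 2-fold. The red points reach 3.71 for Slc15a3 at the top and -5.32 for Slc26a1, whose probe was bright on the mock array alone.

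Among the 7 genes that were higher, Slc15a3, a proton-coupled carrier of histidine and small peptides in lysosomes of immune cells, stood first. It had an intensity of 1392.5 on the ginger array, 1171 on the zingerone array, 4998 on the TNBS array and 383 on the mock array, and was higher on TNBS than on mock by 3.71 on the log2 scale. All 3 arrays of TNBS-treated mice were above the mock array.

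Glucose carriers followed. Slc2a3, the high-affinity glucose transporter of neurons and leukocytes, read 421 on ginger, 322 on zingerone, 988 on TNBS and 203.5 on mock, 4.86-fold higher on TNBS than on mock. Slc2a6, a hexose carrier found in leukocytes, read 539, 482, 1362 and 402 in the same order and was 3.39-fold higher. Slc2a1, the widely expressed glucose transporter, read 2224, 3020.5, 3434 and 1789 and was 1.92-fold above mock, just short of 2-fold. For these 3 genes the TNBS array was the brightest and the mock array the dimmest.

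Slc16a3, which exports lactate from glycolytic cells, read 994 on ginger, 820.5 on zingerone, 1315 on TNBS and 419.5 on mock, 3.13-fold higher on TNBS. Slc3a2, the heavy chain that carries Slc7 amino acid exchangers to the cell surface, read 3538, 2833, 8152 and 2995 in that order and was 2.72-fold higher. Its light chains differed from it and from each other: Slc7a5, which imports large neutral amino acids, was at 299.6 on TNBS and 316.2 on mock. Slc7a11, the light chain that exchanges cystine for glutamate, was 1.92-fold above mock as the mean of 3 probes, which differed by 1.63, 1.09 and 0.09 on the log2 scale.

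The last 2 were Slc31a2 and Slc25a4. Slc31a2, a low-affinity copper carrier of endosomes and lysosomes, read 412 on ginger, 385 on zingerone, 903 on TNBS and 336 on mock, 2.69-fold higher. Slc25a4, which exchanges ADP for ATP across the inner mitochondrial membrane, read 2290, 2309, 3999 and 1737 and was 2.30-fold higher. All 7 genes rest on 1 probe each. The neutrophil marker sum moved the same way as these 7 genes between TNBS and mock, as did the adipocyte sum. By single markers, 6 of 6 measured for neutrophils (9 listed) and 4 of 5 for adipocytes (6 listed) were higher on TNBS than on mock. The limit for dim genes left out markers within 2-fold (Csf3r, Ngp, Mpo and Plin1), which raises these shares. The part of these cell types in the 7 genes was not tested.

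**Figure D2:**
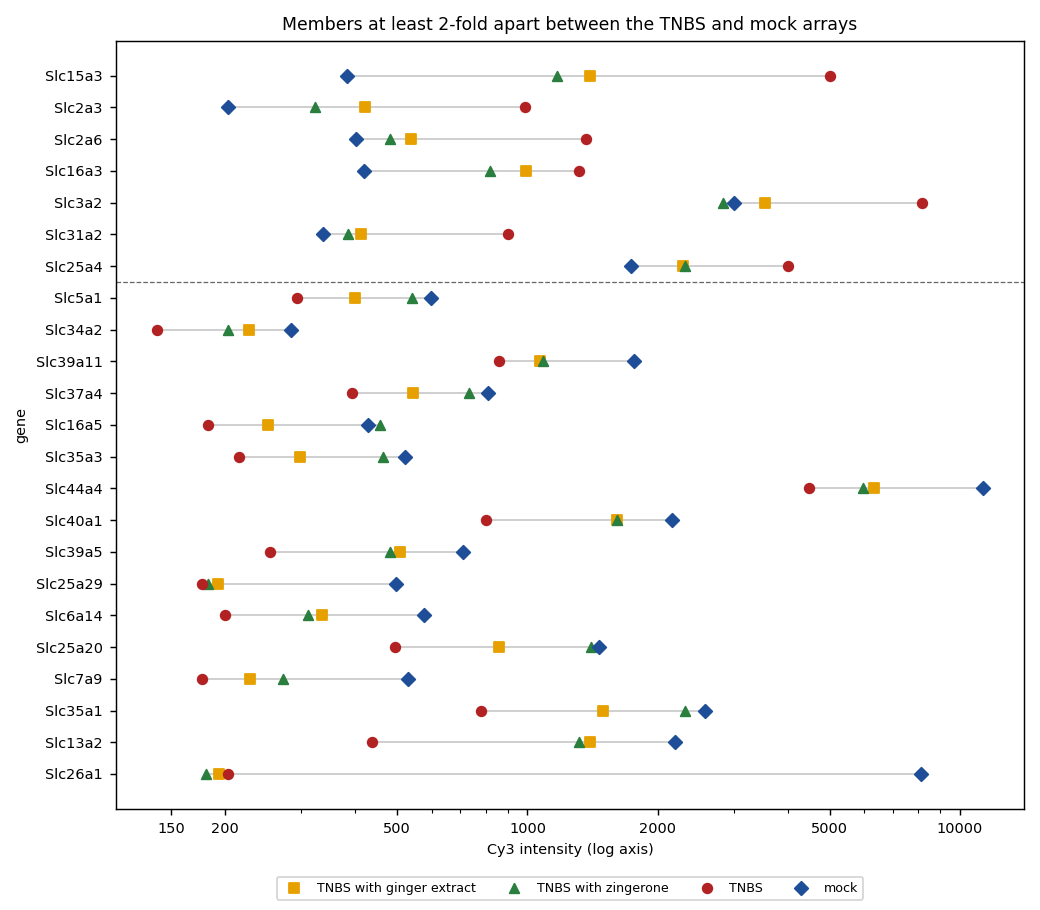
Cy3 intensity (x axis, log scale) of the 23 genes at least 2-fold apart between TNBS and mock, 1 row per gene, with a marker for each of the 4 arrays. The 7 genes above the dashed line were higher on TNBS and the 16 below it lower; in all rows but that of Slc26a1 the TNBS array lies at 1 end.

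The start regions of the 7 higher genes were searched, on both strands, for the κB consensus, for the AP-1 motif TGANTCA and for ACGTG, the core of the hypoxia response element. RefSeq windows of 300 bases (GRCm38.p6) were at hand for 5 of the 7, in 5 windows. ACGTG was found in 3 of the 5, beside 19.6% of 32851 windows of all genes and 25.7% of 187 windows of the measured solute carriers. The κB consensus was in 0 of 5, beside 5.80% of all windows, and TGANTCA in 0 of 5, beside 7.81%. For the 16 lower genes, of which 14 had windows, ACGTG was in 4 of 20 windows, the κB consensus in 2, both of Slc37a4, and TGANTCA in 2. The 3 windows with ACGTG are printed to show where it lies, with the match or its reverse complement in capitals, 5′ to 3′ on the strand of the gene. A match is a stretch of letters and not a binding site.
Slc16a3, chr11:120948817-120949116, plus strand: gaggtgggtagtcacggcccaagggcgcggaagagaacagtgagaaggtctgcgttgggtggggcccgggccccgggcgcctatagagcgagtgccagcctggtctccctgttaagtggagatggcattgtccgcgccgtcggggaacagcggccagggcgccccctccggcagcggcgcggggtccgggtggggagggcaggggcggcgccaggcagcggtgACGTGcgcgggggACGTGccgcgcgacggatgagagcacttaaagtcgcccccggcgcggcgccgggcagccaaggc
Slc31a2, chr4:62286179-62286478, plus strand: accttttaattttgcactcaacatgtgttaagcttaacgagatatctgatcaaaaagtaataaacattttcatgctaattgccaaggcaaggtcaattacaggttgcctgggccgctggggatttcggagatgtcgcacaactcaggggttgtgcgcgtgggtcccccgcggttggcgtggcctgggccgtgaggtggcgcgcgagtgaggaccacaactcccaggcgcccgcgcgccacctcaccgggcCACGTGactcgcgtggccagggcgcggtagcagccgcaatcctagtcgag
Slc3a2, chr19:8713848-8714147, minus strand: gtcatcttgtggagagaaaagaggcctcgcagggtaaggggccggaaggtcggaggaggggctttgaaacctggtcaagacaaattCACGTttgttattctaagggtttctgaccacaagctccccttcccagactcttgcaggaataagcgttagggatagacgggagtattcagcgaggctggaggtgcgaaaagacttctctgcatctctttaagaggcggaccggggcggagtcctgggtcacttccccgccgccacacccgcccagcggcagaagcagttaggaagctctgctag
Slc16a3 holds the letters at 27 and at 14 bases before its start. In Slc31a2 the motif and its reverse complement overlap at the start site and form 1 palindrome, and in Slc3a2 the reverse complement lies 164 bases before the start. The sequence is that of the reference strain C57BL/6J, not of the mice used.

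Among ion carriers, 22 of 50 annotated genes were measured, 0 were higher and 2 lower, with a class median of -0.22 (log2) and 18 of 22 below 0. The class counts here and below stand beside 5.08% of all measured genes higher and 4.52% lower. The classes are small, with 4 to 48 measured genes, so these counts describe single genes and not a class. Slc26a1, an exchanger of sulfate and oxalate, read 193.5 on ginger, 181 on zingerone, 202.5 on TNBS and 8113 on mock, 40.1-fold lower on TNBS. Its probe was more than 4-fold above the other arrays on the mock array, while those lay within 0.5 of each other (log2), and without it 15 genes were lower. Slc34a2, the intestinal sodium-phosphate cotransporter, read 227, 203.5, 139 and 284 in the same order and was 2.04-fold lower. Both genes passed the limit for dim genes through the mock array alone. Slc12a2, which loads chloride across the basolateral membrane, was at 2062, 2117, 1786 and 2618, 1.47-fold below mock on TNBS, and Slc20a1, a phosphate carrier, at 863.5, 861, 703 and 865.5.

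Slc9a2, an apical sodium-proton exchanger, shows how far single probes can differ. Its brighter probe read 770 on ginger, 1285.5 on zingerone, 412 on TNBS and 1453 on mock, a log2 difference of -1.82 for TNBS over mock. Its dim probe, with at most 185 on any array, differed by 1.20 the other way, and the mean of both was -0.31. Slc12a8, of the cation-chloride cotransporter family, had probes at -1.59 and -0.32 with a mean of -0.95. By their mean over probes neither gene was lower by 2-fold. Over the 32 genes with several probes, the median gap between the highest and lowest probe was 0.45 (log2), the probes of 20 differed in sign, and 6 had at least 1 probe 2-fold lower and 3 at least 1 probe 2-fold higher.

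**Figure D3:**
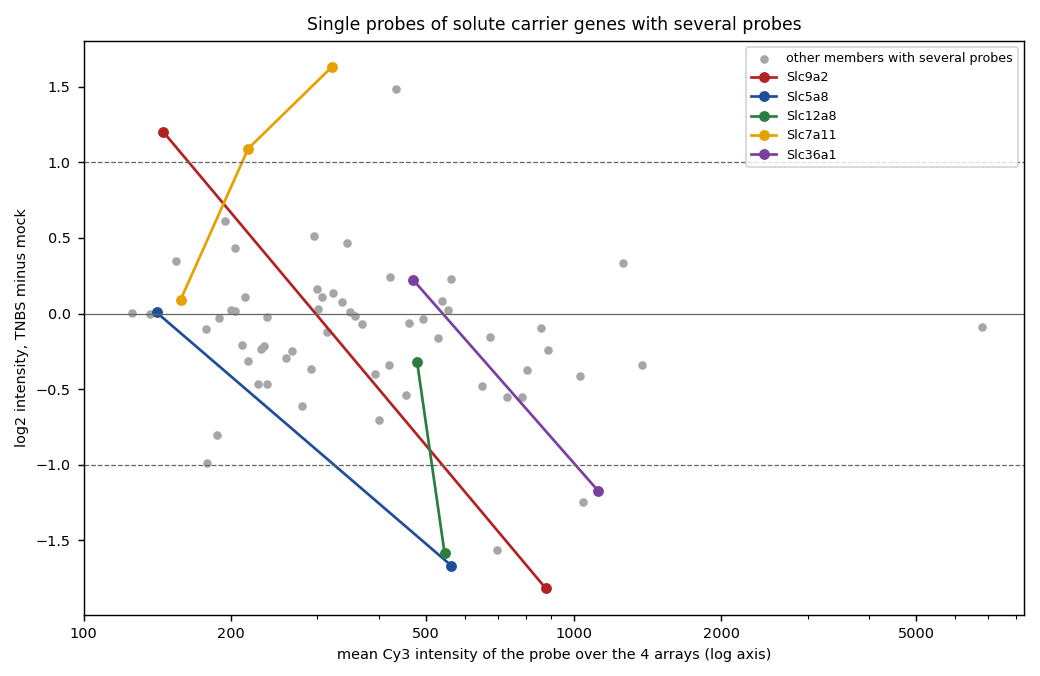
Log2 intensity difference of TNBS minus mock (y axis) for each probe of the 32 measured genes with several probes, against the mean intensity of that probe over the 4 arrays (x axis, log scale); lines join the probes of 1 gene. In Slc9a2, Slc5a8 and Slc36a1 the bright probe lies below -1 and the dim one at or above 0, and in Slc7a11 the difference is larger in brighter probes.

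Among the partners of these carriers, a list of 41 genes of which 31 were measured, 4 were higher and 7 lower on TNBS than on mock. Of all measured genes 5.08% were higher and 4.52% lower. Lower were the sodium pump subunit Atp1b1 (5114 on TNBS, 17524 on mock), the chloride channel Cftr (201 and 767), Clcn2 (675 and 1457.5), the bicarbonate-permeable channel Best2 (238 and 684), the goblet cell protein Clca1 (476.5 and 1325), the potassium channel subunit Kcne3 (292 and 1315) and the proton-potassium pump Atp12a (871 and 3173.5). On TNBS they were 2.16-fold (Clcn2) to 4.50-fold (Kcne3) lower. The subunits of the epithelial sodium channel were within 2-fold: Scnn1a at 1456 on TNBS and 1210 on mock, Scnn1b at 634 and 707, and Scnn1g at 296.5 and 307. Among the carriers themselves 2 of 22 for ions were lower, and whether partners and carriers differ was not tested.

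Of the 16 measured sugar carriers of 24 annotated, 2 were higher (Slc2a3 and Slc2a6) and 2 lower, with a median of -0.07. Slc37a4, which moves glucose 6-phosphate into the endoplasmic reticulum, read 544.5 on ginger, 734 on zingerone, 393 on TNBS and 808.5 on mock, 2.06-fold lower on TNBS. Slc5a1, the apical sodium-glucose cotransporter, read 399, 541, 293 and 598 and was 2.04-fold lower; its probes differed by -1.25 and -0.81. The other 12 lay within 2-fold, the lowest of them the fructose carrier Slc2a5.

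Of 28 measured carriers of amino acids and peptides (55 annotated), 2 were higher (Slc15a3 and Slc3a2), 2 lower and 24 within 2-fold, with a median of -0.08. Slc7a9, a light chain for uptake of cystine and basic amino acids, read 228 on ginger, 271.5 on zingerone, 176.5 on TNBS and 528.5 on mock, 2.99-fold lower on TNBS. It passed the limit for dim genes through the mock array alone. Slc6a14, a sodium- and chloride-dependent carrier of neutral and cationic amino acids, read 334.5, 310, 199 and 575 and was 2.89-fold lower. On both the mock array was brightest and the TNBS array dimmest. Slc36a1, a proton-coupled amino acid carrier, had a bright probe at -1.17 and a dimmer one at 0.22, with a mean of -0.47. Slc1a5, a glutamine carrier, was at 275 on TNBS and 283 on mock.

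Of 8 measured carriers of fatty acids and monocarboxylates (20 annotated), 1 was higher (Slc16a3) and 1 lower, with a median of 0.22. Slc16a5, a monocarboxylate transporter family member, read 251 on ginger, 456 on zingerone, 182.5 on TNBS and 427 on mock, 2.34-fold lower on TNBS. Slc5a8, the apical sodium-coupled carrier of butyrate and other short-chain fatty acids, was 1.78-fold below mock as the mean of 2 probes. Its bright probe read 485, 726, 300 and 952 in the same order, a log2 difference of -1.67, and its dim probe, at most 145.5 on any array, differed by 0.01. Slc27a4, a fatty acid transport protein of the intestine, was at 836 on TNBS and 563 on mock.

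Of 22 measured carriers of zinc, iron and other metals (29 annotated), 1 was higher (Slc31a2) and 3 lower, with a median of 0.00. Slc40a1, ferroportin, the only known cellular iron exporter, read 1612.5 on ginger, 1607 on zingerone, 803 on TNBS and 2154 on mock, 2.68-fold lower on TNBS. Slc39a5, a basolateral zinc importer of enterocytes, read 507, 481, 254 and 708 and was 2.78-fold lower. Slc39a11, another member of the zinc importer family, read 1071, 1084, 860 and 1763 and was 2.05-fold lower. In these 3 genes the mock array was brightest and the TNBS array dimmest.

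The other metal carriers lay within 2-fold. The apical zinc importer Slc39a4 was at 2419 on TNBS and 2927 on mock, the iron importer Slc11a2 at 410.5 and 459, and the phagosomal metal carrier Slc11a1 at 416 and 424. All 7 measured genes of the Slc30 family of zinc carriers lay between -0.09 and 0.39 on the log2 scale. Of the 6 measured partner genes for metal binding and uptake 3 were higher on TNBS than on mock: Mt2, a metallothionein, read 60415 on TNBS and 8324 on mock (7.26-fold higher), Mt1 51505 and 14466 (3.56-fold), and the ferritin heavy chain Fth1 19702 and 6825 (2.89-fold). The ferritin light chain Ftl1 read 42810 and 49594, the transferrin receptor Tfrc 425 and 745.5 and the ferroxidase Heph 834 and 496, all within 2-fold.

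Of 27 measured mitochondrial Slc25 carriers (42 annotated), 1 was higher (Slc25a4), 2 were lower and 24 lay within 2-fold, with a median of -0.08. Slc25a20, which brings acylcarnitines into the matrix for fatty acid oxidation, read 857 on ginger, 1401 on zingerone, 494 on TNBS and 1466 on mock, 2.97-fold lower on TNBS. Slc25a29, a carrier of basic amino acids, read 192, 182, 176.5 and 496 and was 2.81-fold lower. It was dim on all 3 arrays of TNBS-treated mice, in contrast to Slc25a20. Slc25a3, which imports phosphate for ATP synthesis, was 1.77-fold below mock, at 2373 on TNBS and 4210 on mock.

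Of 4 measured Slc35a carriers of nucleotide sugars (5 annotated), which supply the Golgi with substrates for glycosylation, 2 were lower. Slc35a1, the carrier of CMP-sialic acid, read 1496 on ginger, 2313 on zingerone, 781 on TNBS and 2571 on mock, 3.29-fold lower on TNBS. Slc35a3, a carrier of UDP-N-acetylglucosamine, read 298, 463, 215 and 520 and was 2.42-fold lower, with probes at -1.56 and -0.99. Slc35a2, the UDP-galactose carrier, was at 353 on TNBS and 281 on mock.

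Of 48 measured genes with other substrates (77 annotated), 0 were higher and 2 lower, with a median of -0.09. Slc13a2, the sodium-coupled carrier of citrate and succinate, read 1392.5 on ginger, 1318 on zingerone, 438 on TNBS and 2190.5 on mock, 5.00-fold lower on TNBS. Slc44a4, which takes up thiamine pyrophosphate in the colon, read 6318, 5956, 4474.5 and 11312 and was 2.53-fold lower. Slc5a6, which takes up biotin and pantothenate, was 1.96-fold below mock. The highest in this class was Slc66a1, at 377.5 on TNBS and 198 on mock, which passed the limit for dim genes through the TNBS array alone. It is a lysosomal exporter of cationic amino acids but was counted here and not with the amino acid carriers. Another 4 matching genes encode no transporter: the scaffolds Slc9a3r1 (4736 on TNBS, 2689 on mock) and Slc9a3r2, the adaptor Slc4a1ap and the transcript Slc6a19os (300 and 347). None of these 4 was 2-fold apart in any comparison.

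Ginger extract given with TNBS was then set against TNBS alone. On the ginger array 4 of 179 genes were higher than on TNBS (2.23%, beside 1.35% of all measured genes) and 6 lower (3.35%, beside 2.48%). The lower ones were Slc15a3 (3.59-fold), Slc2a6 (2.53-fold), Slc2a3 (2.35-fold), Slc3a2 (2.30-fold), Slc17a6 (2.22-fold) and Slc31a2 (2.19-fold). The higher ones were Slc10a1 (3.85-fold), Slc13a2 (3.18-fold), Slc22a6 (2.03-fold) and Slc40a1 (2.01-fold). The median log2 difference was 0.05 for these genes and 0.02 for all. Of the cell type markers, 1 for epithelium (Cdx1) was higher on ginger than on TNBS, and 3 of 6 for neutrophils and 4 of 5 for adipocytes were lower; their part in the result was not tested.

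Slc10a1, Slc22a6 and Slc17a6 had no 2-fold difference between TNBS and mock. Slc10a1, the bile acid importer of hepatocytes, read 516.5 on ginger, 110 on zingerone, 134 on TNBS and 132 on mock, bright on the ginger array alone. Slc22a6, an organic anion carrier of the kidney, read 501, 223, 247 and 278. This came from 1 of its 2 probes, which read 836.5 on ginger and at most 224 elsewhere, while the other read 300 on ginger and 272 on TNBS. Slc17a6, a carrier that loads glutamate into synaptic vesicles, read 274 on ginger, 499 on zingerone, 608 on TNBS and 464 on mock. Slc39a5 was just short of 2-fold above TNBS (1.995-fold).

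Zingerone given with TNBS was set against the same TNBS array, which both comparisons share. On the zingerone array 8 of 179 genes were higher than on TNBS (4.47%, beside 4.57% of all measured genes) and 6 lower (3.35%, beside 2.96%). Higher were Slc13a2 (3.01-fold), Slc35a1 (2.96-fold), Slc25a20 (2.84-fold), Slc16a5 (1.32 on the log2 scale), Slc25a21 (2.49-fold), Slc35a3 (2.16-fold), the urate carrier Slc2a9 (2.11-fold) and Slc40a1 (2.002-fold). Lower were Slc15a3 (4.27-fold), Slc2a3 (3.07-fold), Slc3a2 (2.88-fold), Slc2a6 (2.83-fold), Slc31a2 (2.34-fold) and Slc4a11 (2.04-fold). With background subtracted 24 were higher (13.6%, beside 9.7% of all genes), and with the brightest probe of each gene 14 (7.45%, beside 5.04%). Among cell type markers, 2 of 12 for epithelium (Cdx1 and Cdx2) and 2 of 4 for B and plasma cells (Jchain and Mzb1) were higher on zingerone than on TNBS. Lower were 3 of 6 for neutrophils, 2 of 5 for adipocytes and 2 of 6 for smooth muscle (Actg2 and Des). Their part in the result was not tested.

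Slc25a21, a mitochondrial carrier of oxodicarboxylates, read 125 on ginger, 292 on zingerone, 117 on TNBS and 126 on mock, bright on the zingerone array alone. Slc2a9 read 250, 508, 241 and 281 in the same order. Slc4a11, a membrane carrier of the Slc4 family, read 524, 430.5, 880 and 477.5. Further mitochondrial or peroxisomal carriers lay just short of 2-fold above TNBS on the zingerone array: Slc25a17, of peroxisomes, 1.999-fold, Slc25a11, which exchanges malate for oxoglutarate, 1.95-fold, and Slc25a3 1.90-fold. On the ginger array these were 1.14-fold, 1.26-fold and 1.29-fold above TNBS.

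Of the 16 carriers that were lower on TNBS than on mock, 8 read nearer to mock on the zingerone array and 8 on the ginger array. The 16 were picked by a low TNBS value against mock, which by itself favours readings above TNBS on the other arrays. The 8 on ginger include Slc26a1 and Slc25a29, which were more than 2-fold below mock on both arrays. Slc25a20 was 1.74-fold above TNBS on ginger and 2.84-fold on zingerone, Slc35a1 1.92-fold and 2.96-fold, Slc35a3 1.39-fold and 2.16-fold, and Slc16a5 by 0.46 and 1.32 on the log2 scale. Slc13a2 (3.18-fold and 3.01-fold) and Slc40a1 (2.01-fold and 2.002-fold) were close on both arrays. Nearer to mock on the ginger array were, among others, Slc6a14 (-0.78 on ginger and -0.89 on zingerone, log2 over mock), Slc39a5 (-0.48 and -0.56) and Slc44a4 (-0.84 and -0.93). The bright probes of Slc9a2 and Slc5a8 were above TNBS by 0.90 and 0.69 (log2) on ginger and by 1.64 and 1.28 on zingerone. The difference between the treatments was not tested, and the amounts given are not stated.

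**Figure D4:**
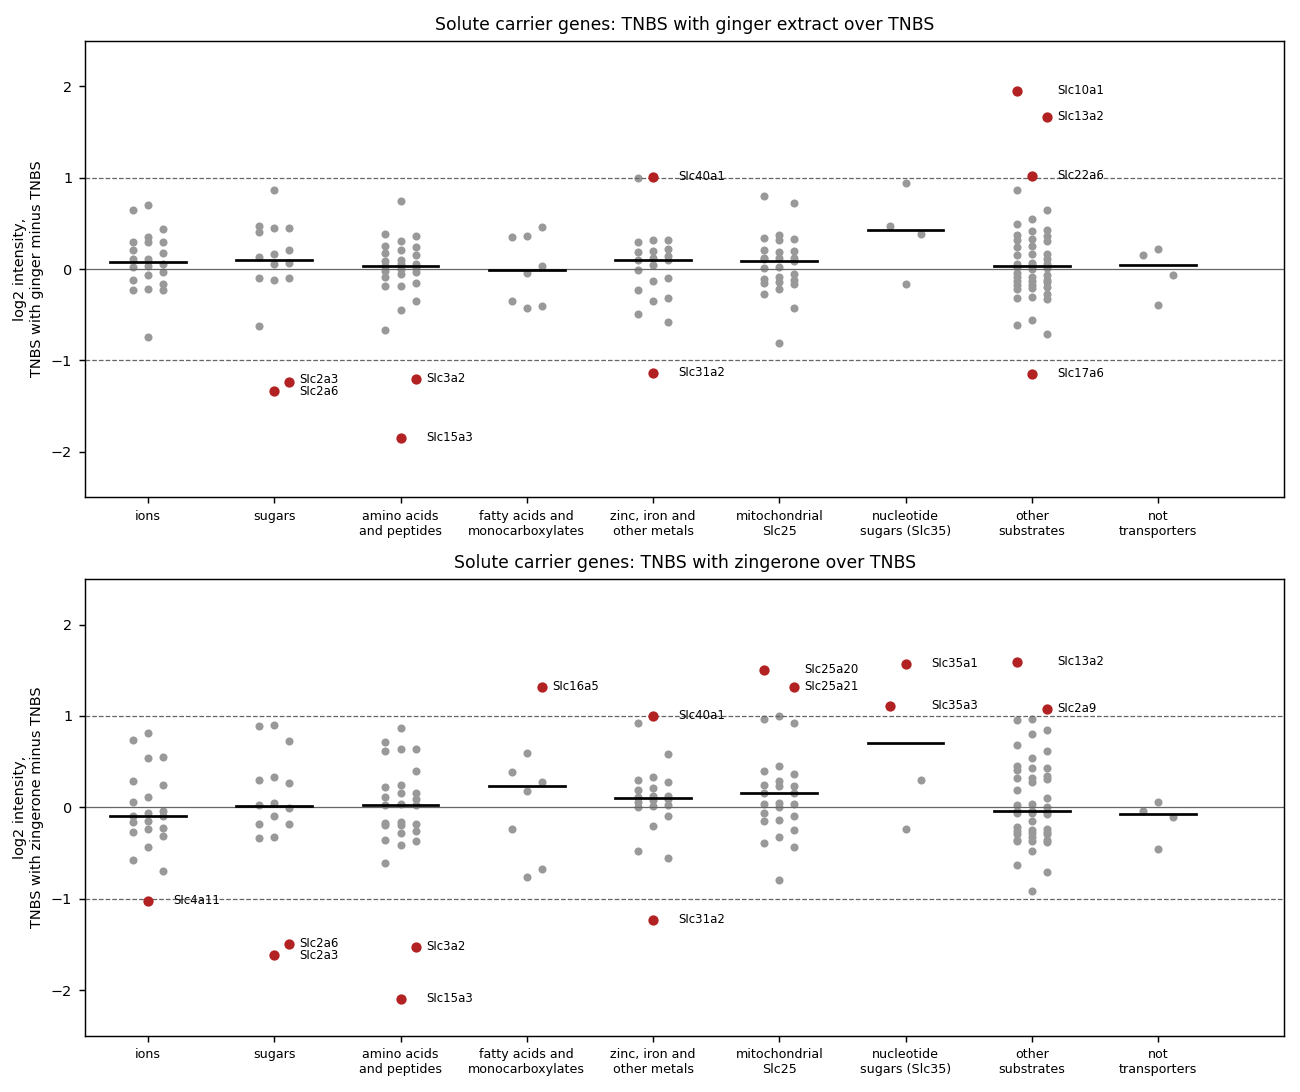
Log2 intensity differences (y axes) for the 179 measured genes by substrate class (x axis), TNBS with ginger extract minus TNBS above and TNBS with zingerone minus TNBS below; red points are at least 2-fold apart, bars are class medians and dashed lines mark 2-fold. Both panels share the TNBS array. Slc15a3 lies lowest in both panels (-1.84 and -2.09), and the Slc35 and Slc25 points above 2-fold are in the zingerone panel alone. This depends on the cut-off, since Slc35a1 lies at 0.94 in the ginger panel.

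The partners differed as well. On ginger over TNBS 2 of 31 were higher and 1 lower, beside 1.35% and 2.48% of all measured genes. On zingerone over TNBS 5 were higher and 2 lower, beside 4.57% and 2.96%. Kcne3 was at 731 on ginger, 1208 on zingerone and 292 on TNBS, and Atp1b1 at 11566, 16224 and 5114. Cftr was at 394.5 on ginger, 571 on zingerone and 201 on TNBS, past 2-fold on the zingerone array. Emb, a chaperone of monocarboxylate transporters, was 5.42-fold higher on TNBS than on mock, at 395.5 on ginger, 394.5 on zingerone, 1229 on TNBS and 227 on mock. Mt2 was at 30416.5 on ginger, 33341 on zingerone, 60415 on TNBS and 8324 on mock.

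Against mock, 4 of 179 genes were higher on the ginger array (2.23%, beside 1.62% of all measured genes) and 3 lower (1.68%, beside 1.08%). Higher were Slc10a1 (3.91-fold), Slc15a3 (3.63-fold), Slc16a3 (2.37-fold) and Slc2a3 (2.07-fold), and lower were Slc26a1, Slc25a29 (2.58-fold) and Slc7a9 (2.32-fold). On the zingerone array 2 were higher than on mock (1.12%, beside 1.53%), Slc15a3 (3.05-fold) and Slc25a21 (2.32-fold), and 3 lower (1.68%, beside 1.05%). These were Slc26a1, Slc25a29 (2.72-fold) and Slc4a1 (2.23-fold), the anion exchanger of red blood cells, which read 820.5 on ginger, 641 on zingerone, 953 on TNBS and 1430 on mock. Slc15a3, Slc25a29 and Slc26a1 were thus at least 2-fold apart from mock on all 3 arrays of TNBS-treated mice, and Slc16a3 was 1.96-fold above mock on the zingerone array. Slc25a29 and Slc26a1 passed the limit for dim genes through the mock array alone, so that their differences rest on 1 mock value. These comparisons share the mock array with TNBS over mock.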

How the data were processed

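Total RNA of colon (5 µg, amplified and labelled with Cy3, per the labels' protocols) was measured on 4 arrays, 1 per group. For 29922 probes the deposited values are linear Cy3 intensities, 1 a probe and array. Limma appears in the submitters' processing notes with neither version nor role, and how background and normalization were handled is not given there. The sorted deposited intensities of the 4 arrays differ by at most 1.84%, as after quantile normalization, and the lowest is 74.2, so that folds of dim probes may be understated.

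Probes were named from the platform annotation (21020 with 1 symbol), and older symbols were replaced by way of RefSeq synonyms, assembly GRCm38.p6 (17558 current, 3410 updated, 52 kept). Log2 intensities, without a pseudocount, were averaged over the probes of a gene (Python 3.11.15, pandas 2.3.3). Coordinates are those of the RefSeq windows, which run 250 bases before to 50 after a gene's start. With 1 array per group no test was run. The steps were tested on simulated data.

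The members, classes and lists were chosen with earlier results of these data known. The text names the 10 largest increases and decreases past 2-fold in each of 3 comparisons (TNBS over mock, and ginger and zingerone over TNBS), the highest and lowest member of each class for TNBS over mock, and 32 transporters always, of which 21 were measured. Slc34a2, Slc39a11, Slc2a5, Slc12a8, Slc36a1, Slc5a6, Slc25a3, Slc25a11, Slc25a17 and the motifs were chosen after values were seen, and Slc4a1ap and Slc6a19os were then moved to the genes that encode no transporter. Alternatives concerned normalization, background, dim values, probes and members counted.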

Additional observations from a re-analysis of the deposited data

Results flagged for a closer look

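For 2 genes the ginger array was past 2-fold above the TNBS array while the zingerone array lay below it, within 2-fold. The difference between the treatments was not tested. Slc10a1 differed from TNBS by 1.95 (log2) on the ginger array and by -0.29 on the zingerone array. Its single probe was above the named-probe median of the ginger array alone. Slc22a6 differed by 1.02 on the ginger array and by -0.15 on the zingerone array, and the first value rests on 1 of its 2 probes, which differed by 1.90 and 0.14.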

How the results depend on the processing

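Over 10 alternatives, 8 planned and 2 chosen after seeing the data, 81 of 100 counts stayed within 1.5 times the reported one and 19 did not. Of those 100, 40 came from 4 settings that left every count as it was: quantile normalization and equal medians (the arrays already share a distribution), no filter, and leaving out the genes that encode no transporter. Without the 2 added ones, 1700 values of named genes were compared, of which 0 reversed, 4 dropped under 2-fold and 36 passed it. A filter leaves a gene's value as it is, so the 225 without a filter and the 130 at the 75th percentile could not change. The 225 each under quantile normalization and equal medians had little room to change. All 220 with single-array probes left out stayed as well. Changes came from background subtraction (28), the brightest probe (8) and the floor (4) alone. Background subtraction gave 11 genes higher for TNBS over mock, 10 for ginger over TNBS, 24 for zingerone over TNBS and 9 for zingerone over mock, with 7 lower for ginger over mock and 6 for zingerone over mock; of all genes it gave 8.61%, 3.28%, 9.7%, 3.82%, 2.82% and 1.96% in that order. A floor at the 25th percentile left 1 higher for zingerone over mock (0.559%, beside 1.41% of all genes). Under it Slc5a1 (TNBS over mock, -0.91), Slc25a21 (0.83 over TNBS and 0.82 over mock on zingerone) and Slc35a3 (zingerone over TNBS, 0.97) dropped under 2-fold. A filter at the 75th percentile kept 82 members. Of them 2 were higher for ginger over TNBS (2.44%, beside 2.34% of all genes so filtered) and 4 for zingerone over TNBS (4.88%, beside 7.19%). For zingerone over mock 1 was higher (1.22%, beside 2.47%), and for ginger over mock 1 was lower (1.22%, beside 1.86%). The brightest probe per gene gave 14 higher for zingerone over TNBS (7.45%, beside 5.04% of all genes). Of the 124 members at or above the median on all 4 arrays (added), 8 were lower for TNBS over mock (6.45%, beside 4.67% of all genes under that rule). Higher were 2 for ginger over TNBS (1.61%, beside 1.3%) and 4 for zingerone over TNBS (3.23%, beside 4.19%). For ginger over mock 2 were higher (1.61%, beside 1.4%) and 0 lower (beside 0.984%). For zingerone over mock 1 was higher (0.806%, beside 1.2%) and 1 lower (0.806%, beside 1.02%). Fewer members were counted under that rule and the 75th percentile filter, and for the other settings the cause was not tested. No paired analysis was possible because there was 1 array per group, and no replicate could be left out. Dim probes limit what can be seen.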

Other observations

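Of the 32 transporters to be named always, 8 were on the arrays but below the median of the named probes on all 4. They include the apical sodium-proton exchanger Slc9a3, at 192 on ginger, 257 on zingerone, 169.5 on TNBS and 216 on mock, and the butyrate and lactate carrier Slc16a1, at 193.5, 178, 203.5 and 151 in the same order. The peptide carrier Slc15a1 (169 on TNBS, 183 on mock), the zinc and iron importer Slc39a14 (175 and 162) and the carnitine carrier Slc22a5 (160.5 and 183) were among them. So were the manganese exporter Slc30a10 (121 and 125), the sodium-bicarbonate cotransporter Slc4a4 (125 and 128) and the ileal bile acid carrier Slc10a2 (131 and 112). Of the 127 members below that limit, 0 were 2-fold apart in any of the 5 comparisons, beside 0.137% of all 6581 genes below it.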
